A study of Mus musculus with 12 samples.

Results

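The genes described here mark naive T cells and the resting state, and they were followed across 4 stimuli that differed in peptide and in dose. The list named 10 genes: Klf2, Il7r, Satb1, Igfbp4, Pdlim4, Actn1, Dntt, Tcf7, Lef1 and Sgk1. Members were the probe sets whose only gene symbol was one of these, which gave 21 probe sets of the 22690 on the array and represented 9 genes of 12394. No probe set had Tcf7 as its only symbol, and that gene was not analysed here. Of the 21 probe sets, 20 passed a filter on low signal, set at a mean of 4.48 log2 over the arrays, and these included at least 1 for each of the 9 genes. A gene with more than 1 probe set is represented by its brightest one, judged by the mean of all arrays.

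The cells were T cells carrying the 5CC7 transgene, a T cell receptor specific for a cytochrome c peptide. The labels state that these were transferred into B10.A mice, that the recipients then received peptide into a tail vein, and that lymph nodes were pooled and the 5CC7 cells sorted 48 h after the peptide. The peptide was MCC, described as a strong agonist of this receptor, or 102S, described as a weak one, each at 0.2 µg or 2 µg. The 4 groups had 3 arrays each, 12 in all, and differed in nothing else that the labels name. Unstimulated cells were not analysed here, so every level is relative to another stimulus. The labels do not say whether the arrays of a group came from separate animals, and the p-values then measure only the spread between these samples. Because RNA came from sorted populations, fewer cells with a transcript and less of it per cell cannot be told apart.

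A naive T cell is held in quiescence by an active transcriptional programme. Forkhead factors of the FOXO family keep Klf2 and Il7r switched on. KLF2 is a zinc finger factor that restrains proliferation and drives the receptors that let naive cells recirculate through lymph nodes, and IL7R is the receptor chain through which they receive the survival signal of interleukin 7. Signalling from the T cell receptor through AKT moves FOXO factors out of the nucleus, and Klf2 and Il7r transcripts are known to fall after activation. Among the other genes, Satb1 encodes a genome organiser of T cells and Lef1 and Tcf7 encode HMG-box factors of the naive state. Igfbp4 encodes a binding protein of insulin-like growth factors. Pdlim4 and Actn1 encode actin-associated proteins, Dntt encodes the template-independent DNA polymerase of antigen receptor gene assembly, and Sgk1 encodes a kinase related to AKT.

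The promoter windows of Klf2 and Il7r are shown because the comparison of these genes is the centre of the results. The sequences are from RefSeq on GRCm38.p6, run 5′ to 3′ on the gene's strand, and were cut back to the bases upstream of the annotated gene. The Klf2 window of 250 bases lies at chr8:72318812-72319061 on the plus strand. The Il7r window of 185 bases lies at chr15:9529942-9530126 on the minus strand. Capitals in the Klf2 window mark CACCC, a KLF core, which lies on the opposite strand at positions -19 to -15 from the gene start and so reads GGGTG here. No motif searched was found in the Il7r window.
Klf2 promoter: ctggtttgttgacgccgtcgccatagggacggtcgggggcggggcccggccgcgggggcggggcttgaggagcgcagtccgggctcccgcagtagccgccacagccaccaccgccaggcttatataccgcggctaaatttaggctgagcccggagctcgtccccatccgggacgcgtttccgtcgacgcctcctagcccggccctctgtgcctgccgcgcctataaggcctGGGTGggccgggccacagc
Il7r promoter: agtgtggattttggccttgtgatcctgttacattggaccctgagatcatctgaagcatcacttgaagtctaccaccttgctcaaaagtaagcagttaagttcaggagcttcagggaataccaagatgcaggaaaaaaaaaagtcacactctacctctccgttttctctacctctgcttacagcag

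The Klf2 window held 71.2% G and C bases and the Il7r window 43.8%. Both strands of 32851 mouse promoter windows of 300 bases were searched for short motifs. The 10 genes had 23 of these windows. The FOXO core GTAAACA occurred in 3.65% of all windows and in 1 of the 23, a window of Tcf7. The TCF and LEF cores CTTTGAT and CTTTGAA occurred in 3.73% and 5.14% of all windows. Among the 23 they occurred in 1 and 2, all windows of Sgk1. The KLF core CACCC, which 57.5% of all windows held, was found in 14 of the 23, which is near that share. These 14 windows belonged to 7 of the 10 genes. A match describes letters in a window, not binding.

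Array medians differed by at most 0.089 log2, and replicate arrays correlated with r between 0.977 and 0.995 across probe sets. All 5 of 6 T cell markers that had a probe set were above the filter. Cd3d lay between 12.7 and 13.1 log2, and Cd4 between 6.80 and 7.75, beside 7.03 to 8.31 for Cd8b1. From 0.2 µg of 102S to 2 µg of MCC, Cd4 rose by 0.61 ± 0.18 log2 (limma, adjusted p = 0.0271) and Cd3d by 0.19 ± 0.06 (adjusted p = 0.0481). Thy1 fell there by 0.37 ± 0.08 log2 (adjusted p = 0.00607), and Cd3e and Cd3g were not called. The B cell markers Cd79a and Ms4a1, the myeloid markers Itgax, Itgam, Cd14 and Adgre1, and Foxp3 had means below the filter. Other markers of these lists passed it: Cd79b and Cd22 of B cells, Lyz2 and Csf1r of myeloid cells, and Il2ra and Ctla4 of regulatory T cells. Cd79b was higher with MCC at 0.2 µg, by 1.26 ± 0.33 log2 (limma, adjusted p = 0.0227), and the summed levels ran from 6.24 to 7.39 log2 for 4 B cell markers and from 6.50 to 7.25 for 6 myeloid markers over all arrays. The summed level of 4 regulatory T cell markers moved against the genes described here, from 6.27 to 6.71 log2 after 0.2 µg of 102S, 8.57 to 8.92 after 2 µg of 102S, 8.85 to 9.64 after 0.2 µg of MCC and 9.87 to 10.09 after 2 µg of MCC, with Ctla4, which activated T cells also express, higher by 4.39 ± 0.32 log2 between the outer groups. The part of these markers in the results was not tested. The summed level of 6 CD8 T and NK cell markers moved with the genes described here, from 9.78 to 10.02 log2 after 0.2 µg of 102S, 9.18 to 9.29 after 2 µg of 102S, 8.75 to 9.16 after 0.2 µg of MCC and 8.42 to 8.67 after 2 µg of MCC, and its part in the results was not tested. Within that list, the NK receptor gene Klrd1 fell with MCC by 2.68 ± 0.34 log2 at 2 µg (limma, adjusted p = 0.000525). At 0.2 µg Klrd1 fell by 2.36 ± 0.34 (adjusted p = 0.000593), and with MCC dose by 1.63 ± 0.34 (adjusted p = 0.0347). Prf1 fell with MCC at 0.2 µg by 1.23 ± 0.22 log2 (limma, adjusted p = 0.00231) and with 102S dose by 0.93 ± 0.22 (adjusted p = 0.035). Gzma fell with MCC at 2 µg by 1.34 ± 0.35 log2 (adjusted p = 0.0287), to a mean of 4.28, below the filter. Klrd1, Prf1 and Gzma also fell between the outer groups, and Cd8a, Cd8b1 and Nkg7 did not pass the test in any pairwise comparison. The arrays also came from cells of different source: Xist was at 11.7 to 12.3 log2 on replicate 1 of every group and at 4.05 to 5.10 on replicates 2 and 3. The 3′ minus 5′ difference of β-actin probe sets, a sign of RNA quality, averaged 1.33 ± 0.88 log2 after 0.2 µg of 102S, 1.24 ± 0.41 after 2 µg of 102S, 1.62 ± 0.81 after 0.2 µg of MCC and 0.63 ± 0.12 after 2 µg of MCC (SD, n = 3). Every called difference of the 9 genes had the same sign in replicate 1 alone as in replicates 2 and 3.

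Klf2 was high with the weak agonist and low with the strong one. After 0.2 µg of 102S it stood at 10.36, 10.35 and 10.13 log2 (10.28 ± 0.13, SD, n = 3), and after 2 µg of 102S at 9.57, 9.12 and 9.11 (9.27 ± 0.26). After 0.2 µg of MCC it stood at 7.09, 6.72 and 7.03 (6.95 ± 0.20), and after 2 µg of MCC at 7.85, 7.87 and 7.39 (7.70 ± 0.27). No groups overlapped, and the lowest level of Klf2 belonged to the low dose of the strong agonist, not to the high dose. More 102S lowered Klf2 by 2.02-fold (-1.02 ± 0.17 log2, SE; limma, adjusted p = 0.00562), whereas more MCC raised it by 1.69-fold (0.76 ± 0.17; adjusted p = 0.0496). The rise with MCC dose lay at the edge of the threshold. Leaving out replicate 2 or 3 of 0.2 µg MCC, 1 or 2 of 2 µg MCC, 1 or 2 of 0.2 µg 102S, or 2 or 3 of 2 µg 102S ended this call (0.64 to 0.80 log2; adjusted p = 0.0726 to 0.186), as did the β-actin difference as a covariate (0.58 log2; adjusted p = 0.0652). The opposite signs were tested directly as an interaction of peptide and dose. The MCC dose effect exceeded the 102S dose effect by 1.77 ± 0.24 log2 (95% interval 1.24 to 2.30; limma, adjusted p = 0.00471).

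Il7r was also high with the weak agonist and low with the strong one, and it also fell with more 102S. It stood at 10.78, 11.06 and 10.81 log2 after 0.2 µg of 102S (10.88 ± 0.16, SD, n = 3) and at 9.28, 9.25 and 9.18 after 2 µg of 102S (9.24 ± 0.05). With MCC it stood at 7.97, 6.98 and 7.56 after 0.2 µg (7.50 ± 0.50) and at 7.45, 6.66 and 6.98 after 2 µg (7.03 ± 0.39). The MCC doses overlapped, and all other pairs of groups were apart. More 102S lowered Il7r by 3.13-fold (-1.65 ± 0.23 log2, SE; limma, adjusted p = 0.00167). The MCC doses differed by -0.47 log2, with a 95% interval of -0.98 to 0.04 (adjusted p = 0.308), so neither a fall of nearly 1 log2 nor equal levels could be told apart at 3 arrays a group. The interaction of peptide and dose was 1.17 ± 0.33 log2 for Il7r and did not pass the test (adjusted p = 0.202), but it did without replicate 1 of 0.2 µg MCC (adjusted p = 0.0423). A second Il7r probe set gave the same calls in all 7 comparisons.

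**Figure D1:**
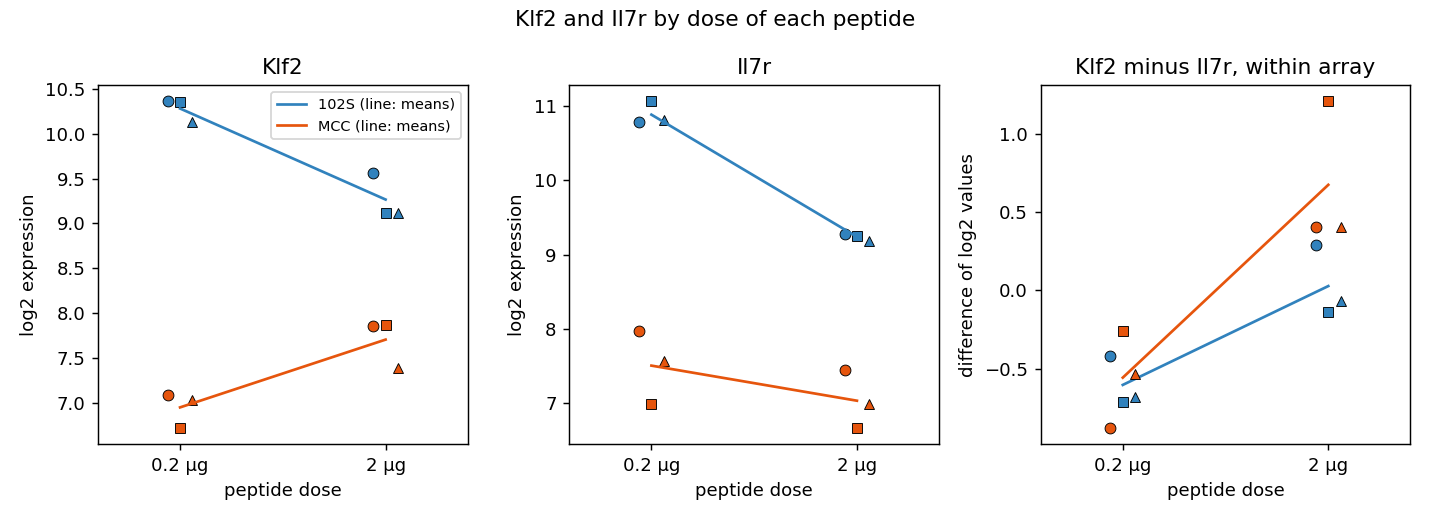
Levels of Klf2 and Il7r on each array (log2 value as deposited), by peptide and dose, with a circle, square and triangle for replicates 1, 2 and 3 and lines joining the group means; the right panel plots Klf2 minus Il7r on each array. Klf2 is lowest at 0.2 µg of MCC (6.95) and higher at 2 µg (7.70), while Il7r has its lowest mean at 2 µg of MCC (7.03).

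Levels of different probe sets are not comparable, so Klf2 was set against Il7r as the difference of both on the same array, which is informative only for how it shifts. That difference was -0.42, -0.71 and -0.68 log2 after 0.2 µg of 102S and 0.29, -0.14 and -0.07 after 2 µg of 102S. It was -0.88, -0.26 and -0.53 log2 after 0.2 µg of MCC and 0.41, 1.21 and 0.41 after 2 µg of MCC. Both groups at 0.2 µg gave the lower values, and the groups at 2 µg lay above them for either peptide. The shift from 0.2 µg to 2 µg was 1.23 log2 with MCC and 0.63 log2 with 102S, and that from 102S to MCC at 2 µg was 0.65 log2, or 0.38 without replicate 2 of 2 µg MCC. Each reached the smallest p that 3 arrays against 3 allow (exact permutation test, 2-sided, 20 allocations, p = 0.1), which cannot pass 0.05. At 0.2 µg the peptides differed by 0.05 log2 in this measure (exact permutation p = 1): the difference from 102S to MCC was -3.33 log2 for Klf2 and -3.38 for Il7r. At 2 µg it was -1.56 log2 for Klf2 and -2.21 for Il7r.

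Satb1 and Lef1 encode nuclear factors, and they differed from each other. Satb1 changed by small steps with little spread. It lay between 11.82 and 12.01 log2 after 0.2 µg of 102S, 11.51 and 11.86 after 2 µg of 102S, 10.96 and 11.20 after 0.2 µg of MCC and 10.58 and 10.81 after 2 µg of MCC. Every MCC array was below every 102S array. Satb1 fell with MCC against 102S at 0.2 µg by 0.83 ± 0.10 log2 (limma, adjusted p = 0.000192), and its other 2 probe sets were called in the same pairwise comparisons. Neither dose comparison of Satb1 passed the test, with differences of -0.37 log2 for MCC (adjusted p = 0.106) and -0.25 for 102S (adjusted p = 0.313); with the β-actin difference as a covariate both did (adjusted p = 0.0057 and 0.0343). The fall from 2 µg of 102S to 0.2 µg of MCC, 0.58 log2 (adjusted p = 0.0133), was lost without replicate 1 of 2 µg 102S or replicate 2 or 3 of 0.2 µg MCC (adjusted p = 0.0539 to 0.0761).

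Lef1 did not pass the test in any of the 7 comparisons of the fit on group means, but other fits called it. Its values were 8.62, 8.55 and 7.39 log2 after 0.2 µg of 102S, 8.51, 7.76 and 7.70 after 2 µg of 102S, 8.08, 7.12 and 6.74 after 0.2 µg of MCC and 8.52, 8.12 and 7.73 after 2 µg of MCC. All groups overlapped, and in each of them replicate 1 was the highest array and replicate 3 the lowest. At each replicate number, the array of 0.2 µg MCC had the lowest Lef1 value of the 4 groups. The difference between the peptides was 0.13 ± 0.39 log2 at 2 µg (95% interval -0.72 to 0.99; limma, adjusted p = 0.881) and -0.87 ± 0.39 at 0.2 µg (adjusted p = 0.17). These intervals are wide, and a change of Lef1 by 1 log2 at the low dose is within them. The lowest Lef1 value in the 0.2 µg 102S group, 7.39, was on the array with the largest β-actin difference, 2.35 log2. With that difference as a covariate, the fall at 0.2 µg was 0.63 log2 (limma, adjusted p = 0.00338) and that from 0.2 µg of 102S to 2 µg of MCC was 0.67 log2 (adjusted p = 0.00251). With the replicate number as a block, Lef1 was higher at 2 µg than at 0.2 µg of MCC by 0.81 log2 (limma, adjusted p = 0.0188). In that fit it fell by 0.68 log2 from 2 µg of 102S to 0.2 µg of MCC (adjusted p = 0.0415). It also fell there between the peptides at 0.2 µg, by 0.87 log2 (adjusted p = 0.00441). The labels do not say what the replicate number marks. With the cell source as a block, a setting chosen after the data had been seen, Lef1 fell at 0.2 µg by 0.87 log2 (adjusted p = 0.0201). Without the array at 7.39 that fall was 1.27 log2 (adjusted p = 0.0321), and without replicate 1 of 0.2 µg MCC it was 1.26 log2 (adjusted p = 0.0313).

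Igfbp4 declined at each step of the series of stimuli. It stood at 9.79, 10.81 and 9.96 log2 after 0.2 µg of 102S, 8.48, 8.61 and 8.49 after 2 µg of 102S, 7.60, 7.47 and 8.04 after 0.2 µg of MCC and 6.55, 6.50 and 6.82 after 2 µg of MCC. No 2 groups overlapped. Igfbp4 fell with dose of 102S by 1.66 ± 0.23 log2 (limma, adjusted p = 0.00154) and with dose of MCC by 1.08 ± 0.23 (adjusted p = 0.0399), and the step between 2 µg of 102S and 0.2 µg of MCC did not pass the test (-0.83 log2; adjusted p = 0.0955). The fall with MCC dose was lost without any 1 array of 2 µg MCC or of 2 µg 102S and without replicate 2 or 3 of 0.2 µg MCC (-0.91 to -1.19 log2; adjusted p = 0.0583 to 0.205), and the middle step was called without replicate 2 of 0.2 µg 102S (adjusted p = 0.0268). Of its 6 probe sets, 1 was called in no comparison and 1 was not called between the peptides at 2 µg, while the other 4 fell between the peptides at both doses. Besides the brightest, only 1 probe set was called with MCC dose (limma, adjusted p = 0.0489). The rest were not (adjusted p = 0.199 to 0.623), nor was the mean of the probe sets (-0.73 log2, adjusted p = 0.0881).

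Pdlim4 covered the widest range of the 9 genes. It stood at 9.48, 9.07 and 9.24 log2 after 0.2 µg of 102S, 6.99, 6.05 and 6.41 after 2 µg of 102S, 5.86, 4.87 and 6.14 after 0.2 µg of MCC and 4.38, 3.83 and 4.13 after 2 µg of MCC. Only the middle groups, 2 µg of 102S and 0.2 µg of MCC, overlapped. The step between the doses of 102S, -2.78 ± 0.31 log2 (limma, adjusted p = 0.000296), was the largest change of any of the 9 genes with 102S dose. All values at 2 µg of MCC lay below the filter of 4.48 log2, a percentile of probe set means and not a detection limit. The falls to that group therefore rest on low signal, and their true size is uncertain. They were 1.51 log2 from 0.2 µg of MCC (limma, adjusted p = 0.0341) and 2.37 from 2 µg of 102S (adjusted p = 0.00068). The former was lost without any 1 array of 2 µg MCC, replicate 3 of 0.2 µg MCC, replicate 2 of 0.2 µg 102S or replicate 3 of 2 µg 102S (adjusted p = 0.0515 to 0.169).

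Actn1, which encodes an actin crosslinker, moved least among the genes that were called. It ranged from 10.75 to 11.06 log2 after 0.2 µg of 102S, 10.88 to 11.02 after 2 µg of 102S, 10.11 to 10.42 after 0.2 µg of MCC and 10.40 to 10.64 after 2 µg of MCC. All 102S arrays were above all MCC arrays, and the doses of 102S differed by 0.01 log2 (95% interval -0.24 to 0.25). Actn1 fell with MCC against 102S by 0.71 ± 0.11 log2 at 0.2 µg (limma, adjusted p = 0.00112) and by 0.40 ± 0.11 at 2 µg (adjusted p = 0.0407). The latter was lost without any 1 array of either 2 µg group, replicate 1 or 2 of 0.2 µg 102S or replicate 2 of 0.2 µg MCC (adjusted p = 0.0501 to 0.135). The fall between the outer groups, 0.39 log2 (adjusted p = 0.0225), was lost without replicate 1 or 2 of 0.2 µg 102S or replicate 2 of 2 µg MCC (adjusted p = 0.073 to 0.0939). Without replicate 1 of 0.2 µg MCC, Actn1 was called higher with MCC dose (0.42 log2; adjusted p = 0.042). Of its other 2 probe sets, 1 was called nowhere and 1 only between the peptides at 0.2 µg (adjusted p = 0.0458).

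Dntt separated the lowest stimulus from the other three. It stood at 8.05, 8.13 and 8.58 log2 after 0.2 µg of 102S, 6.06, 5.99 and 6.56 after 2 µg of 102S, 6.12, 6.30 and 6.81 after 0.2 µg of MCC and 5.68, 5.44 and 5.64 after 2 µg of MCC. The middle groups overlapped, and the difference between them was 0.21 log2 (limma, adjusted p = 0.679). Dntt fell with 102S dose (-2.05 ± 0.22 log2; adjusted p = 0.000193) and from 102S to MCC at 0.2 µg (-1.84 ± 0.22; adjusted p = 0.000112), and a second probe set was called in the same comparisons. At 2 µg the peptides differed by -0.62 log2, which did not pass the test (adjusted p = 0.0968); it passed for the mean of its probe sets (-0.54 log2; adjusted p = 0.036) and without the 2 arrays whose β-actin difference was highest (adjusted p = 0.0384). The fall with MCC dose, 0.83 log2 (adjusted p = 0.0871), was called without replicate 1 of 0.2 µg MCC (0.97 log2; adjusted p = 0.0341). Rag1, the recombinase gene that marks immature thymocytes, lay between 2.10 and 2.97 log2 on all arrays, and the means of Rag2 and Ptcra were also below the filter. The summed level of all 6 thymocyte markers, a list that holds Dntt itself with Cd8a and Cd8b1, was 9.13 to 9.49 log2 after 0.2 µg of 102S and 8.02 to 8.62 in the other groups.

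Sgk1 was highest after 0.2 µg of 102S, at 9.53, 9.77 and 8.19 log2, and stood at 8.16, 7.61 and 7.26 after 2 µg of 102S. With MCC it stood at 6.71, 5.51 and 6.50 after 0.2 µg and at 6.17, 6.28 and 5.71 after 2 µg. The MCC groups overlapped each other and lay below both 102S groups. Replicate 3 of 0.2 µg 102S, the array with the β-actin difference of 2.35 log2, was low for Sgk1 as it was for Lef1. Sgk1 fell from 102S to MCC at 2 µg by 1.63 ± 0.41 log2 (limma, adjusted p = 0.0253), a call lost without any 1 array of 2 µg MCC or replicate 1 or 2 of 2 µg 102S (adjusted p = 0.051 to 0.108). The fall with 102S dose, -1.49 ± 0.41 log2, did not pass the test (adjusted p = 0.084), but without the low array of 0.2 µg 102S it was -1.97 (adjusted p = 0.00698). On all arrays it was called after quantile normalization (limma, adjusted p = 0.046), with the replicate block (0.0172), the cell source block (0.0221) or the β-actin covariate (0.000949). The fall from 2 µg of 102S to 0.2 µg of MCC, -1.44 log2 (adjusted p = 0.0977), was called without the low array of 0.2 µg 102S (adjusted p = 0.0249) or without replicate 1 of 0.2 µg MCC (adjusted p = 0.0497). It was also called with the β-actin covariate or either block (adjusted p = 0.0112 to 0.026).

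**Figure D2:**
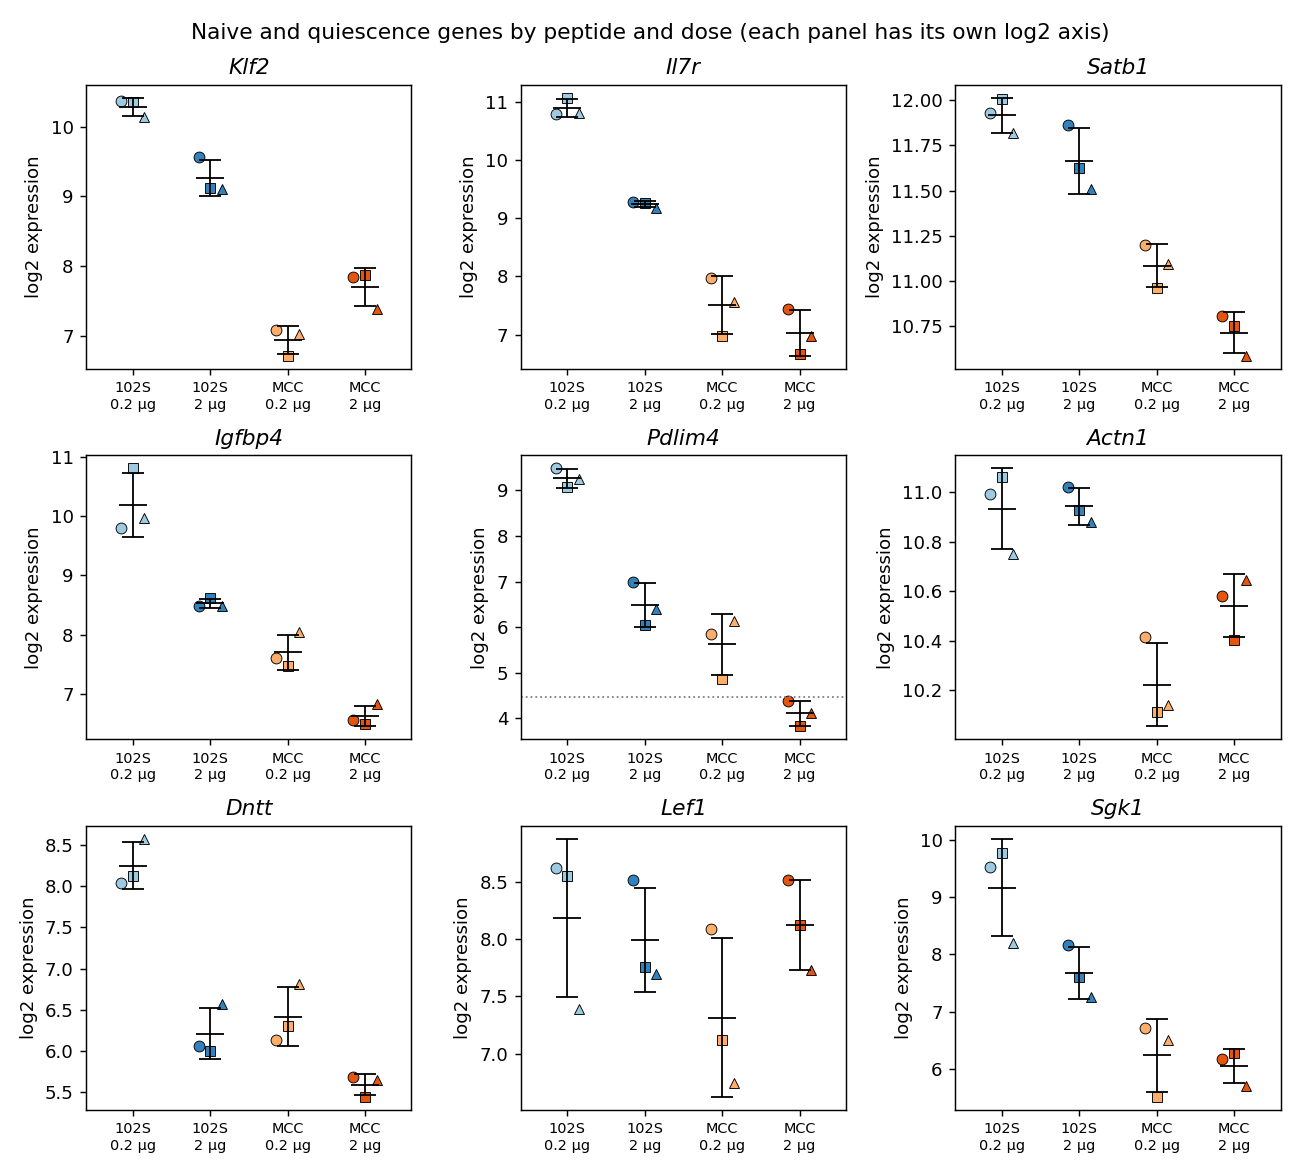
Log2 level of each of the 9 genes on the 12 arrays, by peptide and dose, with a circle, square and triangle for replicates 1, 2 and 3 and bars for the mean and SD; the dotted line is the filter at 4.48 log2. Lef1 groups overlap throughout, Pdlim4 drops from 9.26 to 4.11 log2 between the outer groups, and Klf2 alone is called higher at 2 µg than at 0.2 µg of MCC.

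Read across the genes, the peptide comparisons moved nearly all of them one way. MCC lowered 8 of 9 genes against 102S at 0.2 µg, all but Lef1, where of the 7945 genes tested 7.02% were called lower, 9.09% higher and 16.1% in either direction. At 2 µg it lowered 7 of 9, all but Dntt and Lef1, against 6.83% of all genes lower, 4.43% higher and 11.3% in either direction. The median difference over the 9 genes was -2.49 log2 at 0.2 µg and -1.56 at 2 µg, and that over all genes was -0.01 and -0.05. The outer groups, 2 µg of MCC and 0.2 µg of 102S, gave 8 of 9 genes lower, against 14.8% of all genes lower, 12.8% higher and 27.6% in either direction. The genes had been listed with earlier results of these data known, so these counts describe the list and are no independent support for its direction.

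The dose comparisons called fewer genes. More 102S lowered 5 of 9 genes, Klf2, Il7r, Igfbp4, Pdlim4 and Dntt, and raised none, where 0.529% of all genes were called lower, 3.3% higher and 3.83% in either direction. More MCC lowered Igfbp4 and Pdlim4, against 1.21% of all genes lower, and raised Klf2, against 0.717% higher and 1.93% in either direction. The low dose of MCC was also below the high dose of 102S for 4 of 9 genes, Klf2, Il7r, Satb1 and Actn1, against 1.11% of all genes lower, 1.85% higher and 2.96% in either direction. A difference between the dose effects was called for 1 of 9 genes, Klf2, where 0.0629% of all genes had an interaction called above 0, 0.843% one below 0 and 0.906% either. The interaction of Dntt, 1.22 log2 (adjusted p = 0.13), was called with the β-actin difference as a covariate (adjusted p = 0.000946) and for the mean of its probe sets (adjusted p = 0.00495). The lone call of Klf2 does not show that the other genes lack one: the interaction was above 0 at an unadjusted p under 0.05 for 5 of 9 genes, Klf2 included. The shares of all genes above use the adjusted threshold, so they are no background for this count. Of the 65 tested genes of related lists, described below, 2 were above 0 at the same unadjusted threshold.

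**Figure D3:**
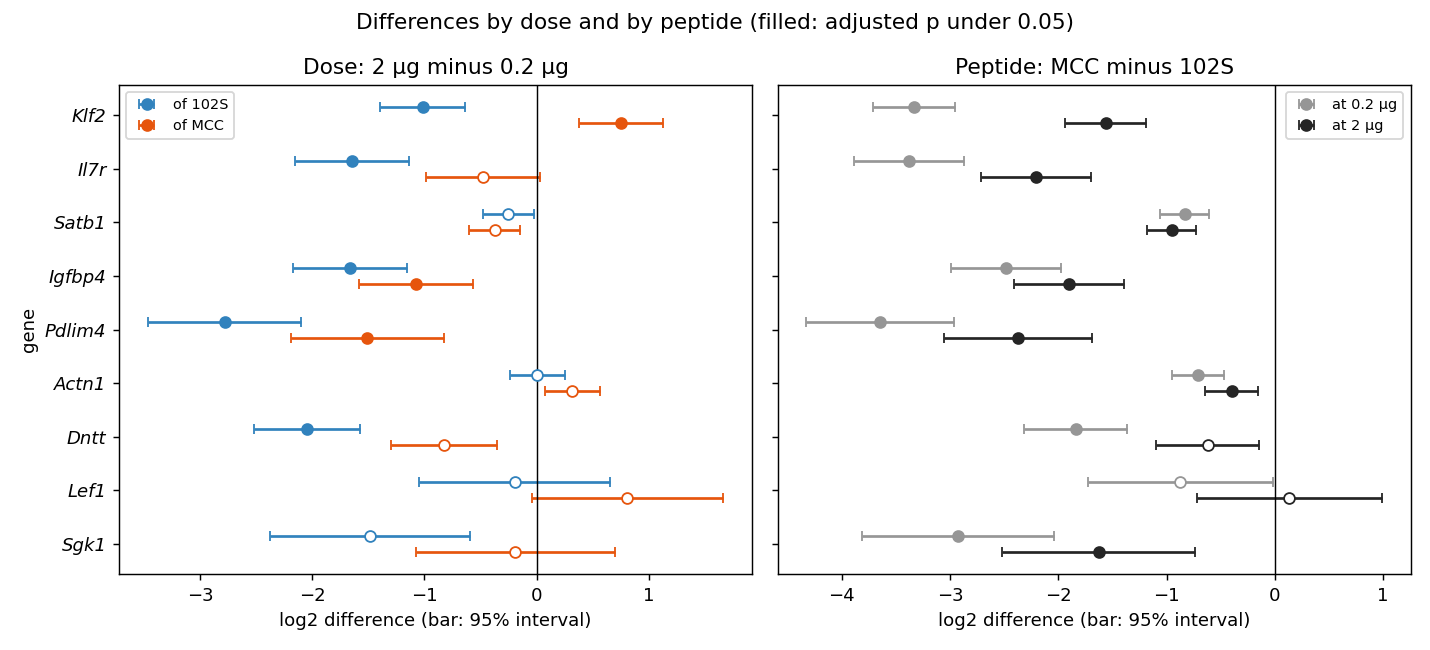
Log2 differences of the 9 genes with 95% intervals from limma, for dose within each peptide (left) and for peptide within each dose (right); filled points passed adjusted p under 0.05. Klf2 is the only gene whose called dose differences lie on opposite sides of 0, at -1.02 for 102S and 0.76 for MCC.

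The fall between the outer groups can be divided by how much of it each middle group had covered. At 2 µg of 102S, Dntt had covered 76.7% of its total fall, Pdlim4 54.0%, Sgk1 47.8%, Igfbp4 46.6%, Il7r 42.7%, Klf2 39.4%, Satb1 20.9% and Actn1 -2.25%, the last meaning no fall. At 0.2 µg of MCC, Igfbp4, Pdlim4, Satb1 and Dntt had covered between 69.0% and 70.7%, Il7r 87.7% and Sgk1 94.0%. Klf2 and Actn1 had gone past their level at 2 µg of MCC, with 129% and 182%, although for Actn1 the MCC doses did not differ by the test (0.32 log2; limma, adjusted p = 0.175). These shares are on the log2 scale and carry no test. The share of Pdlim4 is affected by its values below the filter.

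Genes of the pathways around these genes were followed in 10 lists of 85 genes, of which 65 were tested. MCC lowered 15 of the 65 against 102S at 0.2 µg, where 7.02% of all genes were lower, and 12 at 2 µg, where 6.83% were. It raised none at either dose by limma, where 1 and 4 were higher at an unadjusted p under 0.05 and 9.09% and 4.43% of all genes were called higher. Between the outer groups 17 were lower, against 14.8% of all genes, and 4, Pdcd4, Pdlim2, Pdlim7 and Igf1r, were higher, against 12.8%. The dose of 102S called none of the 65 in limma, with 7 at an unadjusted p under 0.05, and 3.83% of all genes were called, 0.529% as lower, so this count is near the background. The dose of MCC called 1, against 1.93% of all genes: Cish, a feedback inhibitor of cytokine signalling, which fell by 0.79 ± 0.16 log2 (adjusted p = 0.0313).

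Quiescence regulators of the FOXO and KLF families had 9 tested genes. With MCC, 4 fell at 2 µg, Foxo1, Foxo3, Klf3 and Klf13, against 6.83% of all genes, and 4 at 0.2 µg, Klf3, Klf13, Runx1 and Ets1, against 7.02%. Klf3, a repressor of the KLF family, fell by 1.73 ± 0.23 log2 at 2 µg and 1.15 ± 0.23 at 0.2 µg, and Klf13, another KLF factor, fell by 0.64 ± 0.11 and 0.97 ± 0.11. Foxo1 fell by 0.31 ± 0.08 log2 at 2 µg (limma, adjusted p = 0.0261), and its 0.2 µg difference of -0.25 did not pass the test (adjusted p = 0.0514). None of the 9 was called with dose of either peptide in limma, and 2 with MCC and 1 with 102S had an unadjusted p under 0.05. Of all genes, 1.93% were called with MCC dose and 3.83% with 102S dose, so with 9 genes this count is near the background. Of 4 tested homing genes, 3 fell at 0.2 µg and 2 at 2 µg. S1pr1, the receptor for egress from lymph nodes and a known target of KLF2, fell by 1.88 ± 0.32 log2 at 0.2 µg and by 1.30 ± 0.32 at 2 µg. The integrin gene Itga6 fell at both doses as well, by 0.68 ± 0.14 and 0.50 ± 0.14, and Itgb7 fell at 0.2 µg by 0.99 ± 0.23. Between the doses of MCC, S1pr1 differed by 0.02 log2 (95% interval -0.69 to 0.72), an interval that overlaps that of Klf2 (0.38 to 1.13), and the difference between these genes was not tested.

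Partners of the IL-7 receptor, 8 tested genes, were not called between the peptides at either dose. In limma 0 of 8 passed at 2 µg and at 0.2 µg, with 0 and 2 at an unadjusted p under 0.05. With 11.3% and 16.1% of all genes called in either direction, these counts of 8 genes are near the background. Stat5a, a transducer of the receptor, differed by -0.12 ± 0.17 log2 at 2 µg and 0.35 ± 0.17 at 0.2 µg, and Socs1, an inhibitor, by -0.07 ± 0.20 and -0.44 ± 0.20. Among 8 tested partners and relatives of TCF and LEF factors, 3 fell at both doses, against 6.83% of all genes lower at 2 µg and 7.02% at 0.2 µg. Axin2, a common target of β-catenin signalling, fell by 0.70 ± 0.14 log2 at 2 µg and 1.03 ± 0.14 at 0.2 µg. The co-repressor gene Tle4 fell by 0.51 ± 0.13 and 0.54 ± 0.13. Its relative Tle1 fell by 1.39 ± 0.24 at 0.2 µg and by 1.09 ± 0.24 at 2 µg. The mean of Tle1 at 2 µg of MCC, 4.41, lay below the filter, so the size of the latter fall is uncertain.

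Of 14 antiproliferative genes, 1 fell with MCC at 2 µg, which is near the 6.83% of all genes that were lower: Slfn1, by 0.65 ± 0.13 log2. At 0.2 µg 3 fell, against 7.02% of all genes: Slfn1, Cdkn2d and Txnip, by 0.43 ± 0.13, 0.83 ± 0.18 and 0.98 ± 0.25. Txnip encodes an inhibitor of thioredoxin and glucose uptake, and Cdkn2d an inhibitor of cyclin-dependent kinases. The PDZ-LIM and actinin family split by member: Pdlim1 fell with MCC by 0.62 ± 0.11 log2 at 2 µg and 0.53 ± 0.11 at 0.2 µg, as Pdlim4 did, and Pdlim2, known as a ubiquitin ligase of STAT and NF-κB factors, was higher by 1.20 ± 0.31 log2 between the outer groups. Actn2 fell by 1.43 ± 0.23 log2 at 0.2 µg and by 1.70 ± 0.23 at 2 µg. Its mean at 2 µg of MCC, 4.30, lay below the filter, so the size of the latter fall is uncertain.

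In the SGK1 pathway, 0 of 6 tested genes passed between the peptides in limma at either dose, with 3 at 2 µg and 1 at 0.2 µg at an unadjusted p under 0.05. With 11.3% and 16.1% of all genes called in either direction at 2 µg and 0.2 µg, a count of 0 of 6 is near the background. Between the outer groups 3 of the 6 fell, against 14.8% of all genes lower. Sgk3, a sister kinase, fell by 0.55 ± 0.15 log2, Nedd4l, a ubiquitin ligase that SGK1 phosphorylates, by 1.04 ± 0.32, and Ndrg1, another of its substrates, by 0.80 ± 0.17. Igf1r, the receptor for a ligand of Igfbp4, was higher by 0.66 ± 0.16 log2 between the outer groups, where 12.8% of all genes were higher. It was the 1 call there among 4 tested genes of its list. Igf2r, at 0.70 ± 0.27, and Igfbp7, at -0.26 ± 0.15, did not pass. The end-joining genes that act with Dntt in receptor gene assembly had 6 tested members, none called in any comparison in limma, with 1 at an unadjusted p under 0.05 between the outer groups and 1 between the doses of MCC. The share of all genes called in either direction ran from 0.906% for the interaction to 27.6% between the outer groups, so with 6 genes this count is not far from the background. Xrcc5 and Xrcc6, which encode the DNA end binding Ku proteins, differed by 0.16 ± 0.15 and -0.33 ± 0.18 log2 between the outer groups, and Poll by 0.52 ± 0.24.

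**Figure D4:**
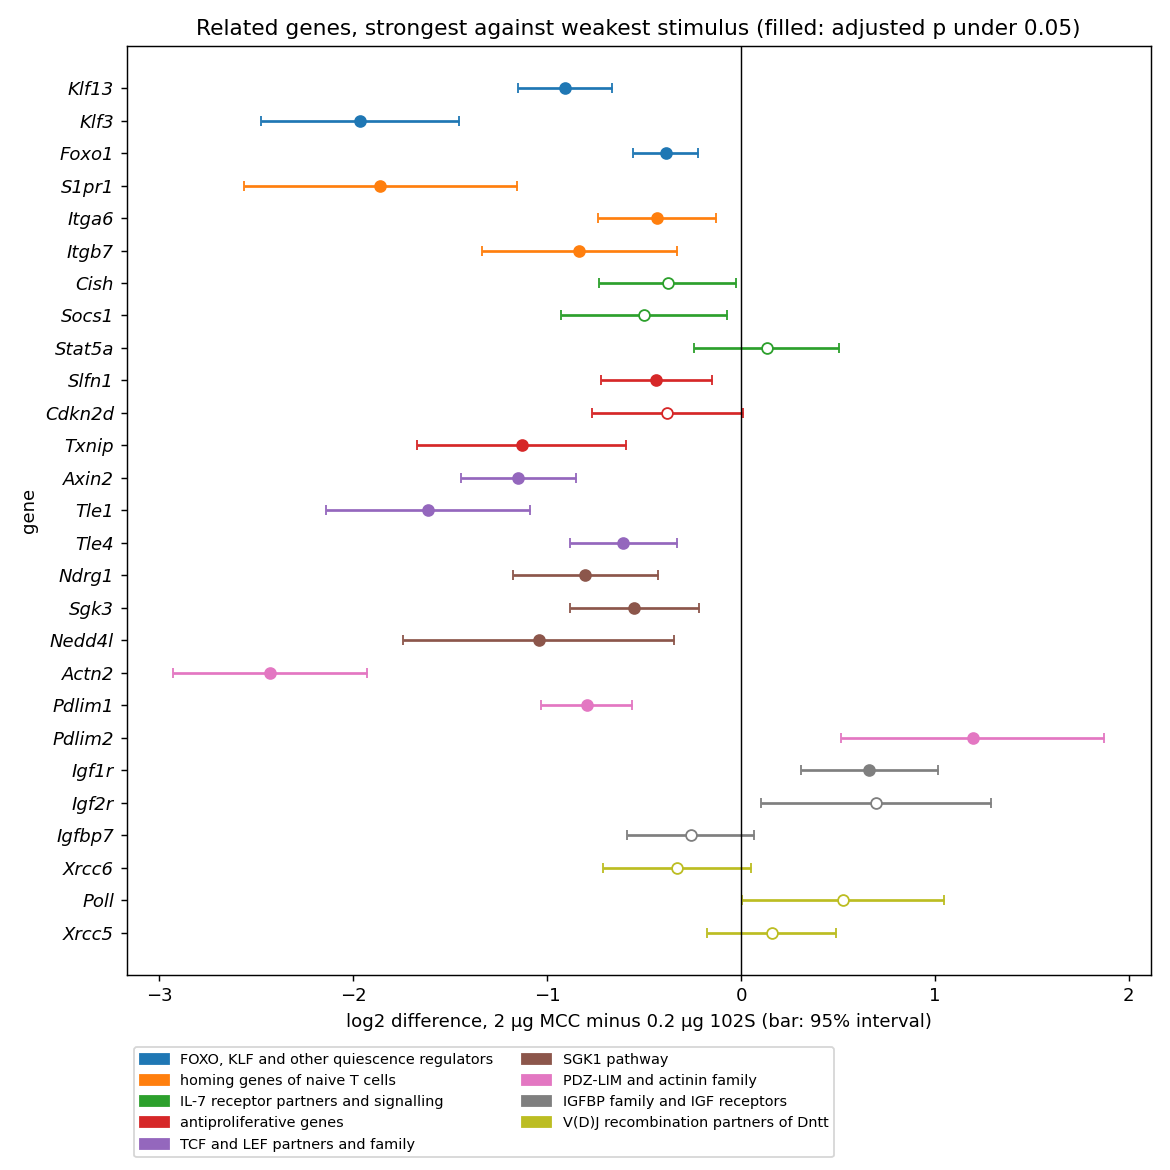
Log2 difference between 2 µg of MCC and 0.2 µg of 102S, with 95% intervals from limma, for up to 3 genes from each list of related genes (filled: adjusted p under 0.05). Klf3 (-1.97), S1pr1 (-1.86) and Axin2 (-1.15) lie below 0, and Pdlim2 (1.20) and Igf1r (0.66) above. No IL-7 receptor partner is filled. Of the 8 tested, 0 were called and 2 were lower at an unadjusted p under 0.05. With 27.6% of all genes called, this count of 8 genes is not far from the background.

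The genes whose pattern over the 12 arrays was most like that of Klf2 and of Il7r were sought among the other 7944 tested genes, by the root mean square difference of log2 values centred on each gene's mean. This measure rests on 12 arrays that share groups and cell sources and carries no test. The values were not scaled, so genes rank by size of change as well as by shape. Nearest to Klf2, whose own root mean square was 1.32 log2, were Fasl (0.406), which encodes the death ligand of FAS, Rasgrp2 (0.438), an exchange factor for RAP1, Sgk1 (0.525), Trib2 (0.569), a pseudokinase, and Il7r (0.577). Fasl had group means of 6.01 and 5.78 log2 after 0.2 µg and 2 µg of 102S and 3.30 and 4.45 after the same doses of MCC. Both MCC means were under the filter, so its level there rests on low signal and its distance and rank are uncertain. Rasgrp2 had means of 8.35, 7.92, 6.08 and 6.24 in the same order.

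Nearest to Il7r, whose own root mean square was 1.55 log2, were Igfbp4 (0.481), Sgk1 (0.509), Klrd1 (0.534), Klf2 (0.577) and Pdlim4 (0.625). The neighbours of Il7r were thus 4 of the genes described here and 1 NK receptor gene, while those of Klf2 held 2 of the genes described here. Because the genes had been listed with earlier results of these data known, these counts are no independent support for their likeness. Dntt ranked 25 of 7944 in likeness to Il7r and 163 to Klf2, and Lef1 ranked 2092 and 1025. The group means of Klrd1 ran from 8.63 log2 after 0.2 µg of 102S to 4.65 after 2 µg of MCC.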

How the data were processed

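Total RNA (100 ng) of 12 sorted T cell samples was labelled by a 16 h in vitro transcription, per the labels' protocols, for Affymetrix mouse arrays. The authors deposited 1 log2 value per probe set and array, a scale read from the values (1.86 to 14.7). The submitters' processing notes name GCOS 1.4. Background correction, summarisation and scaling are not given in the sources used here. Values were used as deposited.

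Of 22690 probe sets, 20393 had 1 symbol, 691 several and 1606 none. The 64 controls and all probe sets whose mean fell short of the 40th percentile (4.48 log2) were dropped, and 13556 remained. These were fitted with limma 3.58.1 in R 4.3.3 (lmFit, eBayes with an intensity trend, 4 group means, all arrays). Benjamini-Hochberg adjustment ran over 13556 probe sets per comparison, with a threshold of 0.05, in 6 pairwise comparisons and the interaction. The ± values of differences are standard errors, and those of means are SD. The fit was tested on simulated data with noise drawn separately for each array. Deviations shared by same-numbered arrays, described below, were not part of that test. It recovered 63% to 77% of pairwise differences of 1 log2 and 51% of interactions of that size. The number of arrays limits the precision: a difference had a median standard error of 0.18 log2.

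All 9 genes were named. Related genes were named up to 3 per list by smallest unadjusted p over the pairwise comparisons, and genes of like pattern up to 5. Genes that alone met a called count were named after their values were seen. Members and lists were chosen with earlier results of these data known. Alternatives covered a replicate block, scaling, the filter, the intensity trend, cell source, β-actin difference, the probe set rule, the arrays fitted, and each array left out.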

Additional observations from a re-analysis of the deposited data

Results flagged for a closer look

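The dose effect on Klf2 differed between the peptides by a test of the difference itself. The MCC dose effect minus the 102S dose effect was 1.77 ± 0.24 log2 (limma, adjusted p = 0.00471). It was 1.56 log2 in replicate 1 alone and 1.88 in replicates 2 and 3. Its adjusted p ran from 0.000363 to 0.0243 over 11 alternative settings and 12 omissions of an array.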

How the results depend on the processing

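Of 36 called differences of the 9 genes, among 63 tested, 28 kept their call under every alternative and omission of an array, and all 36 kept their sign. The count of the 9 genes called between the doses of MCC, 3, was 6 with the replicate number as a block, 5 with the cell source as a block, 1 without the intensity trend, and 0 in limma without the 2 arrays whose β-actin difference was highest or with the arrays of the groups compared alone, where 6 and 7 had an unadjusted p under 0.05. That between 0.2 µg of MCC and 2 µg of 102S, 4, was 8 with the replicate block. Called interactions, 1, were 4 with the replicate block, 2 with the β-actin covariate and 2 with the mean of a gene's probe sets. Leaving out 1 array gave 5 to 7 genes between the peptides at 2 µg, 8 to 9 at 0.2 µg, 0 to 5 between the doses of MCC, 5 to 6 between those of 102S, 3 to 5 between the middle groups, 7 to 8 between the outer groups and 1 to 2 interactions. It gave shifts of Klf2 minus Il7r of 0.96 to 1.38 log2 with MCC dose, 0.50 to 0.72 with 102S dose, 0.38 to 0.78 between the peptides at 2 µg and -0.10 to 0.21 at 0.2 µg. Over all genes, the replicate block called 1520 between the peptides at 2 µg (895 without it), 2192 at 0.2 µg (1280), 863 between the doses of MCC (153), 573 between those of 102S (304), 747 between the middle groups (235) and 212 interactions (72). The β-actin covariate called 2011, 2306, 346, 937, 770 and 191 in that order and 3328 between the outer groups (2195). The cell source block called 1928 at 0.2 µg, 502 and 459 between the doses of MCC and of 102S, 584 between the middle groups and 166 interactions. Replicates 2 and 3 alone called 488 at 2 µg, 297 and 192 between the doses and 91 between the middle groups. The arrays of the groups compared alone called 720 at 0.2 µg, 50 between the doses of MCC and 108 between the middle groups, and leaving out the 2 arrays called 65 between the doses of MCC. Leaving out 1 array, those counts ran from 472 to 1018, 720 to 1784, 42 to 663, 154 to 345, 70 to 449, 43 to 100 and, for the outer groups, 1659 to 2346. Gene by gene, the replicate block added calls of Lef1 between the peptides at 0.2 µg (-0.87 log2, limma, adjusted p = 0.00441). It also added Lef1 between the doses of MCC (0.81, 0.0188) and between the middle groups (-0.68, 0.0415). Dntt was added between the peptides at 2 µg (adjusted p = 0.012) and between the doses of MCC (0.00665). Satb1 was added between the doses of MCC (0.0161) and Sgk1 between those of 102S (0.0172). Between the middle groups Igfbp4 (0.0341), Pdlim4 (0.0186) and Sgk1 (0.0189) were added. The interactions added were those of Dntt (0.00759), Pdlim4 (0.033) and Il7r (0.0466). The replicate number was not taken to pair samples, because the labels do not say what it marks. Of 18 pairs of same-numbered arrays, 16 had deviations correlated above 0.1 (r from -0.29 to 0.82). Within replicate 1, r ran from 0.56 to 0.82. Same-numbered arrays thus shared part of their deviation, and the fit on group means leaves this part in its error. The cell source block and the omission of 2 arrays were chosen after seeing the data; the cause of these shifts was not tested.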
